A study of Mus musculus with 16 samples.

Results

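T0901317 (T0) alone was compared with vehicle by ATAC-seq in mouse bone marrow-derived macrophages, and every peak of the Veh list and the T0 list was sorted by whether the other list held a peak at the same place. A Veh peak that shared no base with any T0 peak was called T0-closed, a T0 peak that shared no base with any Veh peak was called T0-opened, and a Veh peak and a T0 peak that overlapped each other and nothing else formed a 1-to-1 shared pair. Of 35551 Veh peaks, 6474 were T0-closed (18.2%), and of 29839 T0 peaks, 224 were T0-opened (0.751%). With the Veh list shortened to its highest-scoring peaks until both lists were equally long, 2301 Veh peaks (7.71%) were closed and 1723 T0 peaks (5.77%) opened. The shared pairs numbered 28291, which took in 79.6% of Veh peaks and 94.8% of T0 peaks. The whole series held 129656 peaks in 4 lists, of which the Veh and T0 lists held 65390.

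The macrophages were grown from the marrow of C57BL/6J female mice in L-cell conditioned medium, so all groups shared the same wild-type genotype and the same differentiation. After a day of serum deprivation, on day 8, the Veh group received DMSO and the T0 group received 500 nM T0 for 3 h, with 4 libraries of 50000 cells in each group. The LPS and T0-LPS groups, used here only to look up the same regions, received DMSO or T0 in the same way and then 10 ng/mL lipopolysaccharide for 2 h more. Each list had been made from its 4 libraries together, so no value below has a replicate check, no test of T0 against Veh was possible, and the 95% Wilson intervals cover counting error only. The labelled cell type was checked by whether a peak lay within 1 kb of a marker gene's start. Peaks stood at 6 of 7 macrophage markers in both lists, among them Adgre1, Cd68, Itgam, Spi1 and Lyz2, and at 0 of 4 T cell markers and 0 of 2 erythroid markers. The exception was Csf1r, which had no promoter peak in either list, while 1 of 4 B cell markers (Ms4a1), 1 of 4 neutrophil markers (S100a8) and 1 of 2 endothelial markers (Kdr) had one in both. Of 3 fibroblast markers, 2 had a Veh peak and 1 a T0 peak, and the part of other cells in the results was not tested.

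Liver X receptors (LXRα and LXRβ) are nuclear receptors that sense oxysterols, and T0 is a synthetic agonist of both. With the retinoid X receptor they bind DNA as a heterodimer, classically at a direct repeat of AGGTCA with 4 bases between its copies, and they switch on genes that move cholesterol out of the cell (Abca1, Abcg1, Apoe) or make fatty acids (Srebf1, Scd1, Scd2). In macrophages the same receptors are also known to hold down inflammatory genes. ATAC-seq marks open chromatin by where a transposase can insert, and a peak's score rises with the strength of that signal.

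The regions below are examples of direct repeats in peaks that differed between the lists, and they are read again beside the rank classes. A peak nearest to Fancc, which also gained rank and had 1 mismatch, is not shown. Among all shared pairs 5 held the repeat with 0 mismatches, and none of these moved by 20 points of rank or more. Each was taken from GRCm38 on the strand where the repeat reads AGGTCA, with the 16 bases of its best direct repeat in capitals. The first is a T0-opened peak in an intron of Abcg1, the cholesterol transporter that loads HDL, at chr17:31075616-31075802 on the plus strand with 1 mismatch among the 12 repeat bases. The next is the shared peak that gained rank just inside Abcg1, at chr17:31058694-31058946 on the minus strand with 2 mismatches. The peaks in Arhgef3, an activator of the small GTPase RhoA, at chr14:27123577-27123874 on the minus strand and near AB124611 at chr9:21527919-21528218 on the plus strand also gained rank and had 1 mismatch each. For contrast, the Pde4b region at chr4:102656629-102656928 on the minus strand lost rank and also had 1 mismatch. The T0-closed peaks near Mgl2, a galactose-binding lectin of macrophages, at chr11:70114565-70114825 on the plus strand and near Susd6 at chr12:80832209-80832465 on the minus strand held the repeat with 0 mismatches. Of peaks over 300 bp, the 300 bp around the repeat are shown, kept within the peak.
Abcg1 intron, T0-opened: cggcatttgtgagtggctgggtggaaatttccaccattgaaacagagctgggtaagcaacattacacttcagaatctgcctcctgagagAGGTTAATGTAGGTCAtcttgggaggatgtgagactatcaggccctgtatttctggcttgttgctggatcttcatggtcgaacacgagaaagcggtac
Abcg1 first intron, gained rank: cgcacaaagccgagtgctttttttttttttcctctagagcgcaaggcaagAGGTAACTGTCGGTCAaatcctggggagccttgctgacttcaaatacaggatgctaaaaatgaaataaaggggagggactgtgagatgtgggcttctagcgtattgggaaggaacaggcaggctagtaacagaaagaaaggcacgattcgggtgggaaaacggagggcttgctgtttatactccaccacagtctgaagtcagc
Arhgef3 intron, gained rank: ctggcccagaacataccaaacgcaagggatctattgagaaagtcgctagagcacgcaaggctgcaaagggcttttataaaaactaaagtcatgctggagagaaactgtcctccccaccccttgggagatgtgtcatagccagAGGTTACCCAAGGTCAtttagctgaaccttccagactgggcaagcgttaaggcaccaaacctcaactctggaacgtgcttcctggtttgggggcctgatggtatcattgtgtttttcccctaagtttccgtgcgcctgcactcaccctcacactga
AB124611, gained rank: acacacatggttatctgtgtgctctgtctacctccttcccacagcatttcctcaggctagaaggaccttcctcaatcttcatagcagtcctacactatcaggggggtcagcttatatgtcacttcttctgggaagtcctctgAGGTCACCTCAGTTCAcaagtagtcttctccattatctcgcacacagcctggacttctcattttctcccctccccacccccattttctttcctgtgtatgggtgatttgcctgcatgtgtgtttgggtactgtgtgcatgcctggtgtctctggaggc
Pde4b, lost rank: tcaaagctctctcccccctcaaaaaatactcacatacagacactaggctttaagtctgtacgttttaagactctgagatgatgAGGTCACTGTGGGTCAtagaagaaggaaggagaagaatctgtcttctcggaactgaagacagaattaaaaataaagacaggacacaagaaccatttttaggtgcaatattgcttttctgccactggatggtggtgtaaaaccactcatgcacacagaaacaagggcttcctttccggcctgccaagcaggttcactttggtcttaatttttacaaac
Mgl2, T0-closed: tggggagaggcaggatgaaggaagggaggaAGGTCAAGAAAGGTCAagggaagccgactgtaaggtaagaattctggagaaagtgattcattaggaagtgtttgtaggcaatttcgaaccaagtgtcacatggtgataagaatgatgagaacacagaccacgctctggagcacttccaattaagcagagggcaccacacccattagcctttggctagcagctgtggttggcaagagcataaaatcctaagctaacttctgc
Susd6, T0-closed: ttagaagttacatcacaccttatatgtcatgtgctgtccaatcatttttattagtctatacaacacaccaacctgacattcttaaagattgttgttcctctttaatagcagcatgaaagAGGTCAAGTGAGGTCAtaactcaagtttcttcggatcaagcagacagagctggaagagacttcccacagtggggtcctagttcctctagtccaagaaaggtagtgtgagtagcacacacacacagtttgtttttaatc

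The T0 list was the smaller and the weaker of the pair. It covered 11.85 Mb against 15.45 Mb for Veh, its peaks had a median width of 351 bp against 383 bp, and its median score was 305 against 372. Among shared pairs, only 1267 of 28291 (4.48%) had a higher score with T0 than with Veh. The read depth of the libraries is unknown from these lists, and its part in the counts of closed peaks was not tested.

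T0-closed peaks were mostly the weak peaks of the Veh list. In the lowest decile of Veh score 79.4% of peaks were T0-closed, in the second 57.7% and in the third 28.7%, and from the seventh decile upward the share stayed under 1%. The lowest 3 deciles held 5894 of the 6474 T0-closed peaks, and 55.3% of all peaks in those deciles were T0-closed. T0-opened peaks also came from the bottom of their list, with 5.03% of T0 peaks in its lowest decile and 1.57% in the second. The peaks carry the peak caller's running numbers, and some numbers are missing from each list. The files do not say why. They are read here as peaks that the authors' enhancer filter took out, so that a closed peak could still have had a T0 peak that was filtered away. For 4066 closed peaks (62.8%, 61.6 to 64.0) the T0 numbering had no gap at that place, which on this reading leaves no place for a removed T0 peak. The same held for 123 of the 224 opened peaks (54.9%, 48.4 to 61.3) against the Veh numbering. Of all 21948 Veh peaks with no gap in the T0 numbering 18.5% were closed, beside 18.2% of all Veh peaks. Of all 15992 T0 peaks with no gap in the Veh numbering 0.769% were opened, beside 0.751% of all T0 peaks. Places with no gap were thus about as common among closed and opened peaks as among all peaks. From a closed peak to the nearest T0 peak the median gap was 4977 bp, and 1062 closed peaks (16.4%) had a T0 peak within 500 bp.

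**Figure D1:**
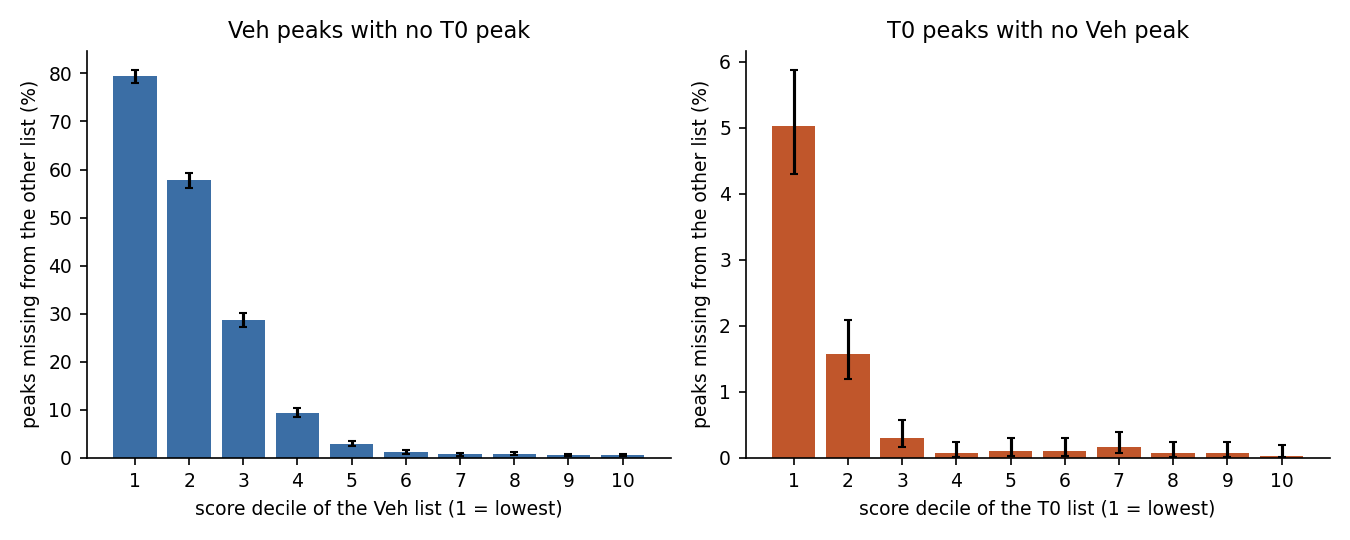
Percentage of peaks missing from the other list (vertical axis) in each score decile of the Veh list (left) and the T0 list (right), with 1 the lowest decile; bars show the share of peaks and error bars the 95% Wilson interval. The Veh share drops from 79.4% in the first decile to 0.563% in the last, and the T0 share stays near or under 5% throughout.

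The T0-closed peaks lay away from promoters. Within 1 kb of an annotated start stood 28.1% of closed peaks and 41.4% of Veh peaks shared with T0, while gene bodies held 46.4% of the closed and 36.5% of the shared. Among peaks of the lowest 3 score deciles the promoter shares were closer, at 29.1% and 36.7%. The closed peaks were also poorer in G and C than shared peaks of the same score. The median GC content in the central 200 bp was 51.5% for closed and 55% for shared peaks of the lowest decile, and the closed value was lower in all 10 deciles. Within the lowest 3 deciles the closed share fell as GC content rose, from 61.6% in the lowest of 5 equal groups to 45.3% in the highest.

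Several genes were nearest to many closed peaks, and their closed shares are to be read beside 18.2% of all Veh peaks. With each peak assigned to the protein-coding gene whose start was nearest, 4441 of 12951 genes with a Veh peak had at least 1 closed peak, 435 had at least 3 and 74 had at least 5. The 435 genes carried 1621 closed peaks among 4787 Veh peaks, and their median number of Veh peaks was 10 against 2 over all genes. Genes with many closed peaks were therefore, as a group, genes with many peaks. For 1051 of the 1621 (64.8%) the T0 numbering had no gap, beside 62.8% of all closed peaks.

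Foxp1, a forkhead transcription factor that restrains monocyte differentiation, led with 11 T0-closed of 30 Veh peaks (36.7%, 21.9 to 54.5), all of them in its introns. In order along chromosome 6 their Veh scores were 128, 225, 243, 84, 196, 98, 175, 216, 117, 99 and 146, which all lay under the Veh median of 372. For 9 of the 11 the T0 numbering had no gap. The peak with a score of 99 had a score of 584 in the LPS list. Of the 19 Foxp1 shared pairs, 1 rose and 1 fell by 20 points of rank or more, and their median change was −4.07 points. Jarid2, a subunit that guides the Polycomb repressive complex, had 10 closed of 18 Veh peaks (55.6%, 33.7 to 75.4), from −250392 to 36779 bp of its start. Their scores were 194, 112, 153, 166, 119, 150, 155, 168, 182 and 112, a narrow span. Dusp6, a phosphatase that switches off ERK, had 9 closed of 22 with scores of 216, 84, 78, 148, 279, 166, 174, 317 and 126, but only 3 of these had no gap in the T0 numbering.

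Of the genes next in order, the highest counts were 8 closed peaks, nearest to Bcor, a corepressor partner of BCL6 (8 of 14 Veh peaks), Spdye4c (8 of 14), Prdm1, the repressor Blimp-1 (8 of 20), Rreb1, a zinc finger factor responsive to RAS (8 of 23), Zfp36l2, which destabilises AU-rich mRNA (8 of 29), Klf6, a Krüppel-like factor (8 of 38), and Cited2, a partner of CBP and p300 (8 of 39). A further 13 genes had 7 closed peaks each, and Uaca and AL607142.1, with 7 closed of 13, had the largest share among these. All 8 closed peaks of Spdye4c, of Rreb1 and of Klf6 stood where the T0 numbering had no gap. The closed shares of Klf6 (21.05%, 11.07 to 36.35) and Cited2 (20.5%, 10.8 to 35.5) were near the 18.2% of all Veh peaks. Those of Klf6 lay from −299309 to 331736 bp of its start, and those of Cited2 from −732846 to −39202 bp. A closed peak of Cited2 had a score of 819, far above the other leading closed peaks. Where the T0 numbering had no gap, the highest score of any closed peak was 417. Bcor combined its 8 closed peaks with 2 shared peaks that rose by 20 points or more and 1 T0-opened peak, and its 6 shared pairs had a median change of 9.17 points.

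In 13 genes with at least 3 Veh peaks every one of them was T0-closed. Arsg, a lysosomal sulfatase, lost all 4 of its peaks, whose scores were 81, 71, 191 and 135, and none of the 4 had a gap in the T0 numbering or a peak in either LPS list. Cd52, a leukocyte surface glycoprotein, lost peaks of 141, 200 and 145 and gained 1 opened peak. Lst1, a leukocyte transcript of the major histocompatibility region, lost peaks of 70, 97 and 150, and Myb, a factor of blood progenitors, lost peaks of 58, 132 and 174. The other 9 were B4galt3, Bcl9l, Hsd11b2, Isl2, Mbnl3, Pawr, Rhof, Rsg1 and Sapcd1. Every peak in these 13 genes lay in the lowest 3 score deciles, of which 55.3% were closed in all.

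At the other end, 48 of the 470 genes with at least 10 Veh peaks had no closed peak. Kctd12 had 18 peaks and lost none. Abca1, which exports cholesterol to lipid-poor apolipoprotein A-I, had 16 and lost none, and it was followed by Hivep2 and Zfhx3 with 16, Cemip2, Ctsc and Spry2 with 14 and Agap1 with 13. Only 2 of the 16 Abca1 peaks lay in the lowest 3 score deciles, against 12 of 30 at Foxp1. The median rank change of the 16 Abca1 shared pairs was 7.97 points, and 3 of them rose by 20 points or more.

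**Figure D2:**
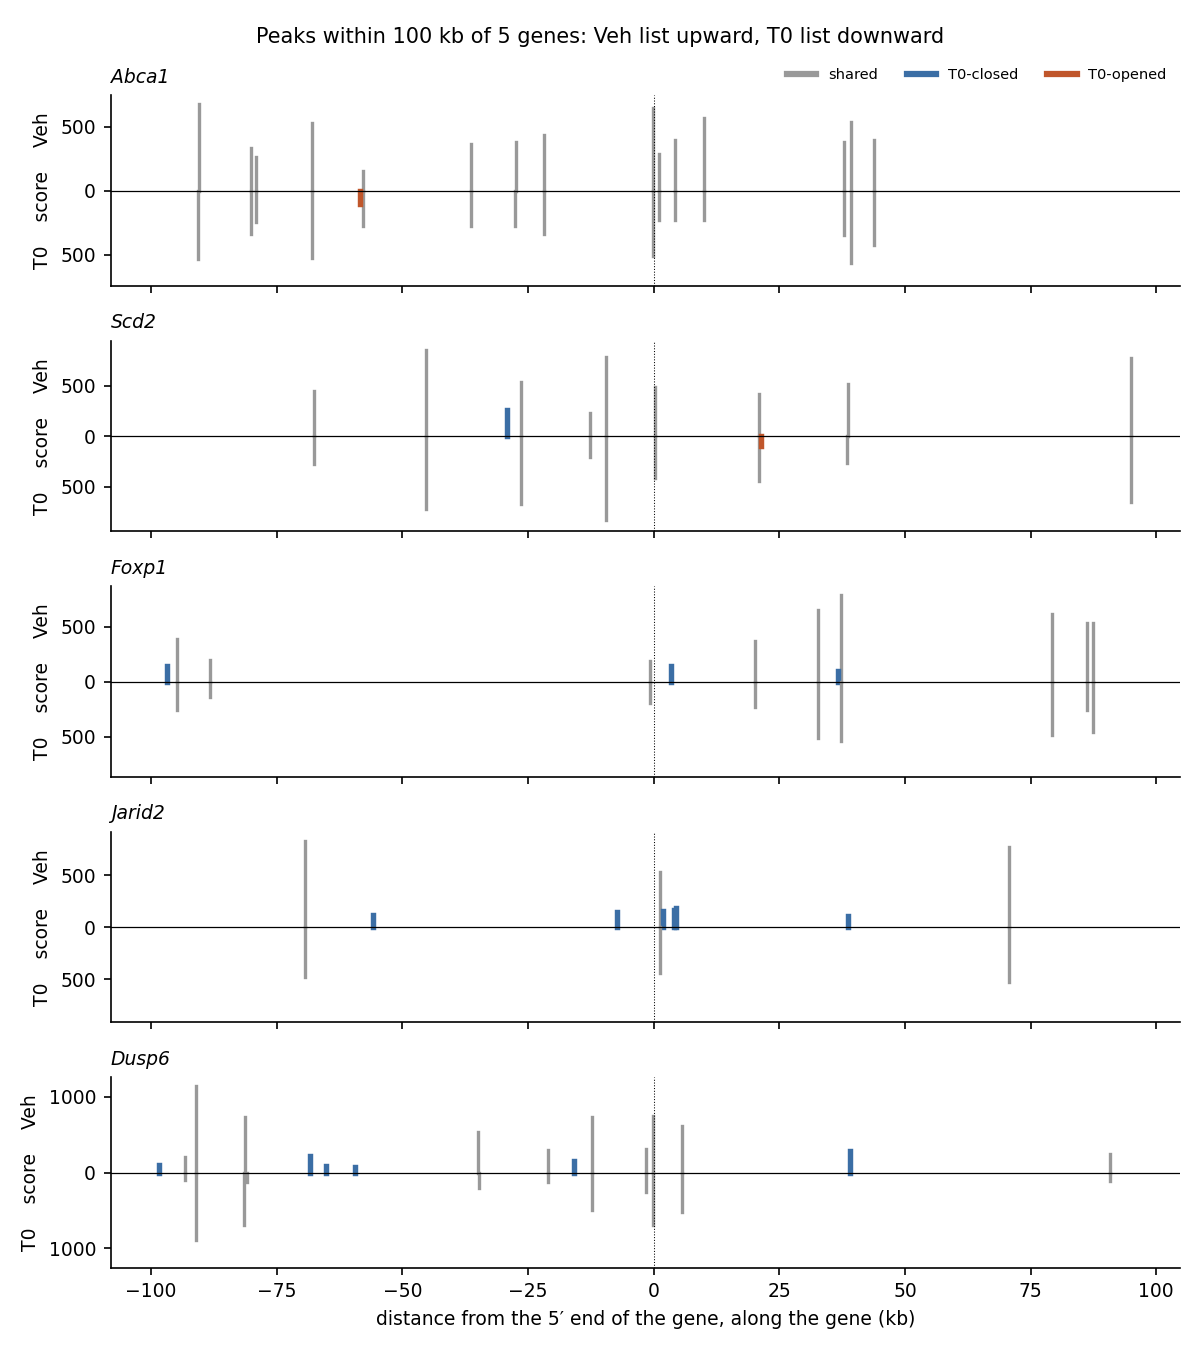
Peaks within 100 kb of 5 genes by distance from the gene's 5′ end in kb along the gene (horizontal axis), with the Veh score drawn upward and the T0 score downward; grey bars are shared peaks, blue bars T0-closed and red bars T0-opened. Abca1 has no closed peak and 1 opened peak, and Scd2 has 1 of each. The closed peaks drawn at Foxp1, Jarid2 and Dusp6 are short bars, most of them below the shared ones around them. Closed peaks assigned to Foxp1, Jarid2 or Dusp6 but over 100 kb from the 5′ end are not drawn. Some drawn closed peaks were assigned to other genes.

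Closed peaks that followed each other along the chromosome formed runs. A run was a series of at least 3 T0-closed peaks with no shared Veh peak between them and no more than 50 kb from one to the next. There were 144 runs holding 466 closed peaks, with a median length of 24298 bp. With the Veh list shortened to the length of the T0 list there were 10. Of the 144, 117 had 3 peaks, 21 had 4, 5 had 5 and 1 had 6. Another 4636 closed peaks stood singly, with no closed peak directly before or after them in the Veh list within 50 kb. A closed peak beyond a shared one could still lie within that distance. No T0-opened peak lay inside any of the 6 runs with the most peaks, ties ordered by their summed Veh score.

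The run with the most peaks covered Cd274 and Pdcd1lg2, which encode the immune checkpoint ligands PD-L1 and PD-L2, at chr19:29368996-29431254. Its 6 closed peaks spread over 62.3 kb had Veh scores of 137, 150, 119, 91, 166 and 142, and 1 number was missing from the T0 list across the region. Of the 6 regions, 3 had an LPS peak and 3 a T0-LPS peak. A run of 5 at Dusp4, a nuclear MAP kinase phosphatase, at chr8:34623908-34671609 had scores from 84 to 298 and no missing T0 number, and a peak stood at 5 of its 5 regions in LPS and at 4 in T0-LPS. Runs of 5 also lay at Aatk and Baiap2 (chr11:119955554-120035118), at Ccdc40, Gaa and Tbc1d16 (chr11:119228404-119258771), at Atp6v0a1, Cavin1 and Stat3 (chr11:100952289-101002184) and at Rreb1 (chr13:37742328-37779686). Thus 3 of the 6 runs with the most peaks were on chromosome 11. The Stat3 run and the Rreb1 run had no missing T0 number, while the Aatk run had 2 and the Gaa run had 1.

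Despite these runs, closed peaks were not much more frequent beside a closed peak than beside a shared one. With the next Veh peak within 50 kb, it was closed in 19.5% of cases after a closed peak (18.4 to 20.6, n = 5181) and in 18.6% after a shared peak (18.1 to 19.1). Among next peaks of the lowest 3 score deciles the shares were 55.0% and 54.6%. By single decile they were 77.4% and 78.5% in the first, 59.8% and 57.2% in the second, and 28.4% in both cases in the third. The intervals of the pooled shares overlapped.

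The closed share varied moderately between chromosomes. Chromosome Y, with 8 Veh peaks and 7 T0 peaks, was left out. On the others it ran from 15.3% on chromosome 18 to 22.1% on chromosome 19, with 21.8% on chromosome 11 and 20.5% on X. Among Veh peaks of the lowest 3 deciles it ran from 49.3% on chromosome 18 to 59.3% on chromosome 12, and there chromosome 11 no longer stood at the top. Over the 20 chromosomes the closed share went with the share of Veh peaks in the lowest 3 deciles (Pearson r = 0.866, Spearman rho = 0.792). Both measures come from the same Veh list, so this relation is a description of how weak peaks were spread. The median rank change per chromosome went with median GC content (r = 0.587, rho = 0.616). Of the X chromosome's shared pairs, 28 (4.52%) fell by 20 points or more, beside 2.5% of all pairs. On chromosome 19, 28 pairs (3.26%) rose by as much, beside 1.85% of all pairs. Opened peaks took from 0.449% of T0 peaks on X to 1.15% on chromosome 12.

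**Figure D3:**
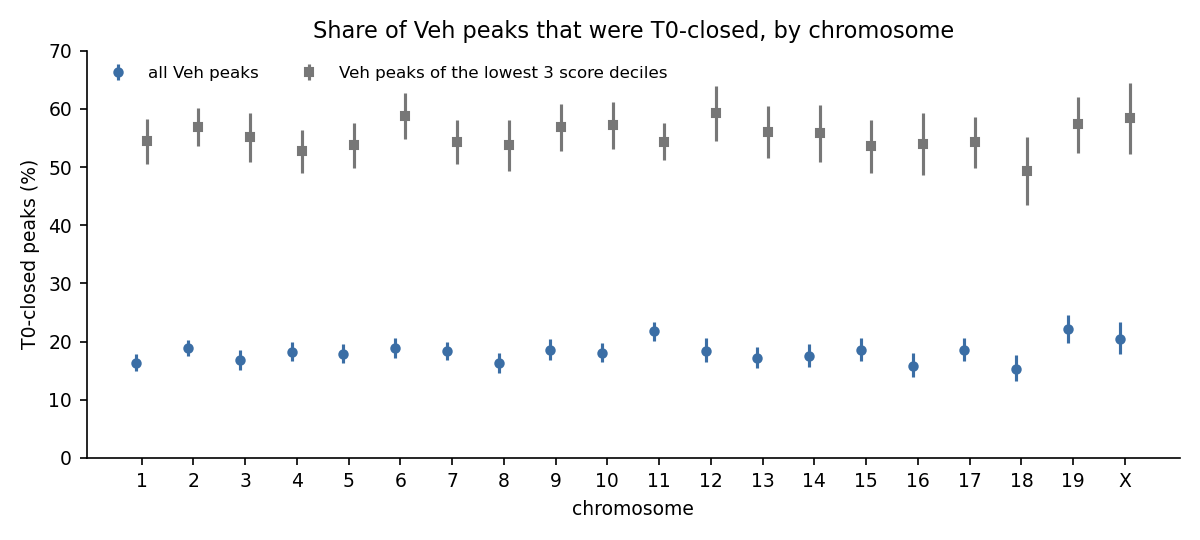
Share of Veh peaks that were T0-closed (vertical axis, percent) on each chromosome but Y (horizontal axis), for all Veh peaks (blue circles) and for Veh peaks of the lowest 3 score deciles (grey squares), with 95% Wilson intervals. All peaks range from 15.3% to 22.1%, and weak peaks from 49.3% to 59.3%.

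At 1 Mb resolution the closed share had a median of 17.4% over the 1323 windows with at least 10 Veh peaks, and its 5th and 95th percentiles were 0 and 33.3%. In 73 windows no peak was closed, and in 3 at least 50% were. The largest number was in chr11:119000001-120000000, a window with Chmp6, Rptor and Baiap2 and with runs named above, where 21 of 44 Veh peaks were closed (47.7%). The window chr5:123000001-124000000, with Clip1, Mlxip and Orai1, had 19 of 40 closed (47.5%). The window chr2:128000001-129000000, with Bcl2l11 and the Spdye4c block, had 17 of 46.

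The strongest closed peaks with no gap in the T0 numbering had moderate scores. Mrpl17, a mitochondrial ribosomal protein gene, had the highest, at 417 in Veh, 126 in LPS and 103 in T0-LPS. Map3k20, a stress-activated kinase, had a closed peak at −6 bp with 380 in Veh, 161 in LPS and 160 in T0-LPS, and Hyal2, a hyaluronidase, had one at −2 bp with 340, 247 and 181. The next were at Lpin2 (336), Wdr5 (333), Satb1 (332, at −494 bp), Lrch1 (330), Abcc2 (327), Mef2c (323) and P2ry14 (322). Peaks at Abcc2 and P2ry14 were in neither LPS list, whereas the other 8 regions had a peak in the LPS list.

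The T0-opened peaks were few and single. The 224 had 222 different nearest genes, and only Pdia4, a protein disulphide isomerase, and Zfp532 were nearest to more than 1. The Pdia4 peaks had scores of 73 and 54 with no gap in the Veh numbering. The Zfp532 peaks had 70 and 422, and there the Veh numbering had a gap. Among opened peaks with no gap in the Veh numbering, the highest score was 200, in an intron of Cpq, a plasma carboxypeptidase, and the region scored 169 in T0-LPS with no LPS peak. Adra1a (170), Zfhx3 (157), Oxtr (151), Aqp9 (151), Mafg (146), Atp13a2 (144), Mettl21a (142), Bcl2l14 (141) and Gpr183 (137) followed. Of these, the Aqp9 peak lay at −33 bp and the Atp13a2 peak at −24 bp of the start, so both were at promoters. Aqp9 is a water and glycerol channel and Atp13a2 a lysosomal polyamine transporter. Within 1 kb of a start stood 33.5% of opened peaks (27.6 to 39.9), against 41.8% of all T0 peaks and 28.1% of closed ones. The nearest Veh peak was a median of 1651 bp away, and 72 opened peaks (32.1%) had one within 500 bp.

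Most opened regions were not open in both LPS-treated groups. Of the 224, 93 (41.5%) had an LPS peak and 81 (36.2%) a T0-LPS peak. They split into 60 with a peak in both, 33 with one in LPS alone, 21 with one in T0-LPS alone and 110 with neither. T0 peaks of the lowest 3 deciles that were shared with Veh had an LPS peak in 86.2% of cases and a T0-LPS peak in 78.0%, and opened peaks of the same deciles in 41.7% and 34.0%. The 21 regions that had a peak with T0 in both settings and in neither list without it included those of 3 LXR target genes. At Abca1 the opened peak scored 103 with T0 and 476 in T0-LPS. The opened peak downstream of Scd2, a stearoyl-CoA desaturase, whose nearest start was that of Scd4, scored 100 and 255, and the Abcg1 intron shown above scored 74 and 242. The others among the 21 with the highest T0 scores were Musk (689 with T0 and 624 in T0-LPS), Gzf1 (400 and 417), Pik3cg (354 and 255) and Cpq. At Musk, Gzf1, Pik3cg and the Abcg1 intron the Veh numbering had a gap, so a Veh peak there could have been filtered away. There was no gap at the Abca1, Scd2 and Cpq peaks.

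The shared pairs were compared by rank, since scores were lower across the T0 list. Each peak's rank was its percentile by score among the 28291 pairs in its own list, from 0 for the weakest to 100, and the change was the T0 rank minus the Veh rank in points. In all, 523 pairs rose by 20 points or more (1.85%) and 708 fell by as much (2.5%). The middle 90% of changes lay between −15.8 and 15.3 points. Pairs that rose had a median score of 259 in Veh and 288 in T0, and all 523 had a higher score with T0. Pairs that fell had 428 and 163.5. At the edge of the rising class stood Rusc2 (20.0 points, score 327 to 329) inside and Rufy2 (19.98 points, 165 to 183) outside. At the edge of the falling class stood Abt1 (−20.02 points, 376 to 156) inside and Nt5c (−19.99 points, 441 to 193) outside. These values chose the classes and are given as a description. With percentiles of the whole lists in place of ranks among pairs, 22 pairs rose and 2971 fell by 20 points or more.

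The largest rise was in an intron of Arhgef3, whose sequence is shown above. It had a score of 158 with Veh, 354 with T0, 290 with LPS and 630 with T0-LPS, and its rank rose by 50.2 points with T0 alone, from 5.93 to 56.1, and by 44.0 in the presence of LPS. Thus both T0-treated lists stood above their own control. The peak at −57809 bp of Abca1 (chr4:53217576-53217832) had scores of 150, 277, 69 and 476 in the same order, and rose by 39.5 points, and by 70.6 with LPS. The T0-LPS peak there also covered the nearby T0-opened peak, so the score of 476 is that of a single wider peak. Rbfa, a ribosome-binding factor of mitochondria, had a promoter peak of 202, 318, 160 and 268 that rose by 39.1 points and by 29.8 with LPS.

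The other peaks among the 12 largest rises rose less or not at all with T0 in the presence of LPS. Dppa3, known from germ cells, had scores of 201 with Veh, 352 with T0, 139 with LPS and 172 with T0-LPS, a rise of 43.8 points and of 14.5 with LPS. Ski, a corepressor of TGF-β signalling, scored 183, 296, 182 and 116 (38.4 points, −8.89 with LPS). Usp2, a deubiquitinase, scored 135, 252, 256 and 205 at −84 bp (37.0 points, −1.62 with LPS). In both of these the rank was higher with T0 alone and lower with T0 in the presence of LPS. Kcnn4, a calcium-activated potassium channel, had a promoter peak of 212, 312, 69 and 77 that rose by 36.5 points and by 1.52 with LPS. Rcbtb2 rose by 35.9 points, Tnks2 by 35.8, Mrps21 by 34.5, Sugct by 34.0 and Ehd4 by 33.5, and with LPS these 5 changed by −10.2 to 5.33 points.

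The largest fall was at the start of Akap17b on X, where the score was 601 with Veh and 118 with T0 and no peak stood in either LPS list. Its rank fell by 56.3 points. An intron of Galc, the lysosomal galactosylceramidase, had 521 with Veh, 97 with T0, 452 with LPS and 514 with T0-LPS. Its change was −52.8 points, against 12.9 with LPS, so the low score was in the T0 list alone. A region upstream of Sulf2, an extracellular sulfatase, had 469 with Veh, 103 with T0 and 134 with LPS (−45.8 points), and an intron of Mn1 had 422, 76, 104 and 119 (−44.5 points). The remaining 8 were Fam50b (−39.6), Nrde2 (−39.1), Nrbf2 (−38.3), Foxn1 (−38.1), Psd3 (−38.0), Calhm6 (−37.7), Gas7 (−37.0) and Sar1b (−37.0). Of these only Gas7 also changed by more than 20 points with LPS, by −20.9.

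Some genes had several shared peaks that moved the same way. Abca1 had 3 that rose, the most of any gene. Pf4, the platelet factor 4 chemokine gene, had 2, at −885 bp (264 with Veh and 301 with T0) and at −43 bp (308 and 355). Rnf135, Alas1, Ccr1, Gm6377 and Ctsd also had 2 each, with rises from 20.2 to 29.7 points. Slc28a2, Pde4b and Zfp217 had 3 that fell. At Slc28a2, a nucleoside transporter gene, the scores went from 458 to 148, from 486 to 197 and from 691 to 331, so peaks at its start and at −7957 bp moved together. At Pde4b, which degrades cyclic AMP, they went from 437 to 133, from 534 to 214 and from 298 to 109, and at Zfp217 from 346 to 110, from 381 to 140 and from 280 to 96. Arid3b, Fam50b, Rnf144a, Armc3 and Ap1s2 had 2 each that fell. In total 498 genes had at least 1 pair that rose, 23 of them at least 2, and 662 had at least 1 that fell, 43 of them at least 2.

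By rank among shared pairs, peaks near LXR target genes moved up more often than down. Within 100 kb of the 5′ ends of 24 LXR targets, 12 of 153 shared pairs rose by 20 points or more (7.84%, 4.54 to 13.2), beside 1.85% of all pairs, and 7 fell (4.58%), beside 2.5%. The median change was 2.52 points against 0.138 over all pairs, and 91 of the 153 (59.5%) gained rank at all, beside 51% of all pairs. The risers lay near 10 of the 24 genes. Peaks near 6 of the genes fell, so movement was in both directions. With percentiles of the whole lists in place of ranks among pairs, the balance turned, since 2 of the 153 rose by 20 points or more (1.31%), beside 0.0778% of all pairs, and 17 fell (11.1%), beside 10.5%.

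Cholesterol efflux genes came first. Besides the peak at −57809 bp, Abca1 had an intronic peak at 43828 bp with scores of 397 with Veh, 424 with T0, 255 with LPS and 303 with T0-LPS (22.1 points, and 16.3 with LPS), and one at −80103 bp with 334, 338, 221 and 180 (20.4 points, and −0.42 with LPS). Another Abca1 peak, in an intron at 10048 bp, went the other way with 569, 226, 481 and 259 (−27.4 points, and −22.4 with LPS). The 2 intronic peaks thus moved in opposite directions in both settings. Abcg1 had the peak at 1145 bp shown above, with 80 with Veh, 159 with T0, no LPS peak and 110 with T0-LPS (20.4 points). In the cluster of Apoe, Apoc1 and Apoc2, apolipoproteins of cholesterol-carrying particles, a peak with 215 with Veh, 245 with T0 and 148 with LPS rose by 25.02 points, and its nearest start was that of Clptm1.

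Among genes of fatty acid synthesis and lipid handling, Srebf1 and Scd1 had rises at their starts, and Scd2, Lpl and Npc2 farther away. Srebf1, the master regulator of fatty acid synthesis, had a peak at −401 bp with 353 with Veh, 409 with T0, 299 with LPS and 308 with T0-LPS (26.7 points, and 9.49 with LPS). Scd1, which makes monounsaturated fatty acids, had one at −63 bp with 135, 230, 182 and 168 (32.7 points, and 4.79 with LPS). For Scd2 the peak at −26437 bp had 539, 666, 502 and 724 (24.8 points, and 21.4 with LPS). A second Scd2 peak at 20887 bp, also within 100 kb of Scd1, had 417, 442, 250 and 418 (21.4 points, and 32.8 with LPS). Both Scd2 peaks therefore rose by over 20 points in each setting. Lpl, the lipase that frees fatty acids from lipoproteins, had 2 risers downstream, at 34272 bp (21.6 points, and −21.5 with LPS) and at 71486 bp (24.3 points, and 12.6 with LPS). Npc2, which hands cholesterol out of the lysosome, had an intronic peak that rose from 163 to 202 (24.2 points) and a downstream one that fell from 547 to 221 (−26.4 points).

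The LXR target regions that fell included a peak at −145 bp of Mertk, a receptor for dying cells, with 346 with Veh, 126 with T0, 132 with LPS and 261 with T0-LPS (−23.2 points, and 34.4 with LPS). The Mertk peak at −0.668 kb moved the other way with T0 alone, from a rank of 29.0 to 48.1 (19.1 points). The remainder that fell were near Nr1h3, which encodes LXRα itself (−21.5 points), Cd5l (−26.3 points) and Npc1 (−30.1 and −20.1 points). The one at −34347 bp of Nr1h3 lay at −199 bp of Ddb2, and the one near Cd5l in an intron of Fcrl1. The Npc1 peak of −30.1 points was in an intron of Npc1, and the other lay at 147 bp of Lama3. Near LXR targets 30 of 188 Veh peaks were closed (15.96%, 11.4 to 21.9), beside 18.2% of all Veh peaks. Fads2, a fatty acid desaturase, had the most, with 5 of 11, and Apoe, Apoc1, Apoc2, Fads1, Cd5l and Npc1 had 3 each. Apoe, Apoc1 and Apoc2 shared the same 3 closed peaks, and the 3 of Fads1 were among the 5 of Fads2. Abca1, Mylip, Scd1, Elovl5 and Arl4c had none.

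**Figure D4:**
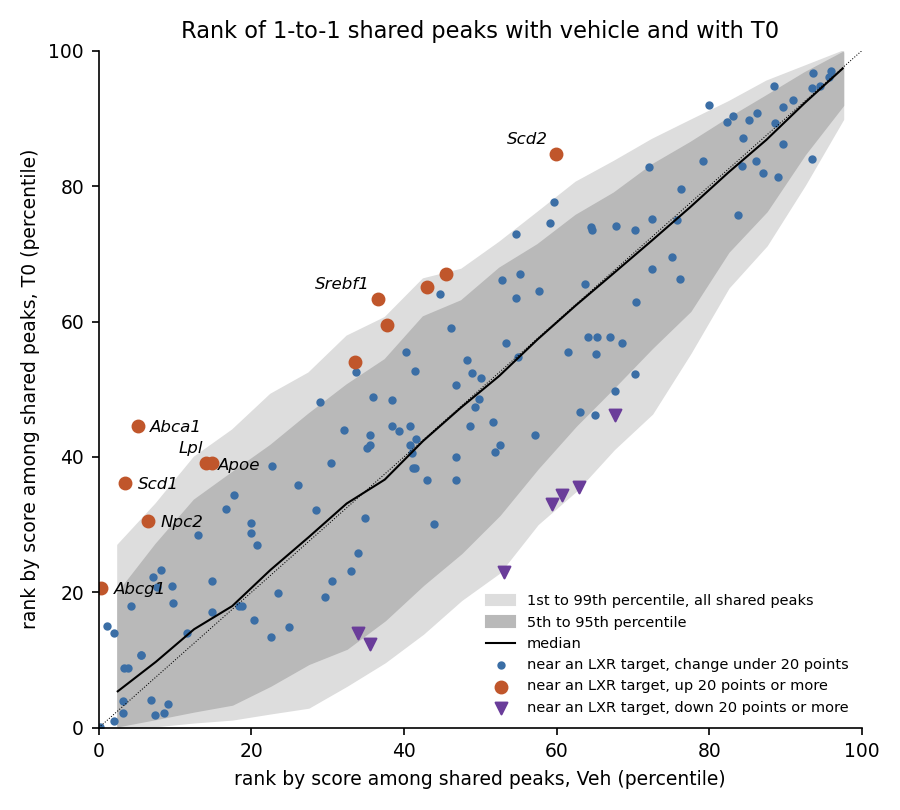
Rank of each 1-to-1 shared peak by score with T0 (vertical axis, percentile) against its rank with Veh (horizontal axis, percentile); the bands hold the middle 98% and 90% of all 28291 pairs, the line is their median, and points are the 153 pairs within 100 kb of LXR targets. The 12 red points (up by 20 points or more) lie above the band's middle with the gene's name beside 8 of them, and the 7 purple triangles lie below it.

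The pairs that moved with T0 alone were then looked up in the LPS and T0-LPS lists, which share no library with the Veh and T0 lists. Of the 28291 pairs, 25158 were also 1-to-1 shared by LPS and T0-LPS, and there 50.8% of all pairs rose in rank. Of the pairs that had risen by 20 points or more with T0 alone, 261 of 447 rose again (58.4%, 53.8 to 62.9), with a median change of 2.80 points. Of those that had fallen by as much, 275 of 642 rose (42.8%, 39.1 to 46.7), with a median of −2.01 points. The direction was thus carried over in part, by a small amount. A change of 20 points or more upward was seen again in 25 of the 447 (5.59%), beside 2.17% of all pairs, and downward in 33 of the 642 (5.14%), beside 2.34%. In the class that had risen by 30 points or more, 13 of 26 rose again.

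The 25 regions that rose by 20 points or more in both settings held the peaks described at Arhgef3, Abca1, Rbfa and Scd2 (both). The others included Impa2, Sdc3, Dennd5a, Arhgef12, Igsf8 and Manba, the lysosomal β-mannosidase. The 33 that fell in both held the Abca1 intron and Gas7.

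Peak width moved with rank. Of the 28291 pairs, 24746 were narrower with T0, 161 equal and 3384 wider (12%), and the median width went from 421 bp with Veh to 354 bp with T0. Of pairs that fell by 20 points or more 4.66% were wider with T0, and of those that rose by as much 29.1%, with the classes between in order. Both measures come from the same peaks in the same lists, so this is a description.

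The direct repeat was looked for in the central 200 bp of every peak, as AGGTCA, any 4 bases and AGGTCA on either strand, with up to 2 mismatches among the 12 repeat bases. It was found in 1.86% of all Veh peaks and 1.87% of all shared pairs. By class of rank change the share was 1.55% in pairs that fell by 20 points or more (11 of 708), 1.598% in those that fell by 10 to 20, 1.88% and 1.78% in the classes on either side of 0, 2.29% in those that rose by 10 to 20 and 3.26% in those that rose by 20 or more (17 of 522, 2.04 to 5.15). The interval of the last class lay just above the share of all pairs. T0-closed peaks had the repeat in 1.95% of cases and T0-opened peaks in 2.68% (6 of 224). The order of the classes was not kept when the whole peak was searched, where risers had it in 4.21% and all pairs in 4.54%. A single half-site AGGTCA stood in 15.5% of the risers (12.7 to 18.9), beside 11.9% of all pairs. Risers were also richer in G and C, with a median GC content of 55.5% against 49.5% in pairs that fell by 20 points or more, and the part of base composition in the repeat shares was not tested.

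The 17 risers with the repeat were nearest to Arhgef3, Tbrg4, Hpcal1, Kcnn4, Josd1, Nup54, Map3k8, Rnf7, Tnfsf10, AB124611, Haus8, Rsad1, Fancc, Nqo2, Agpat4, Abcg1 and Ptger2. Of these Tbrg4 had the next largest rise after Arhgef3, at 32.03 points, and AB124611 went from 324 to 349 (23.2 points, and 19.6 with LPS). At 1 mismatch or none there were 3, the Arhgef3 and AB124611 regions shown above and one nearest to Fancc. The 6 opened peaks with the repeat were nearest to Ttc7b, Maff, Abcg1, Gpsm3, Zfp532 and Acsbg1. The Veh numbering had a gap at those of Abcg1, Zfp532 and Acsbg1. Among the T0-closed peaks shown above, the Mgl2 region scored 59 and the Susd6 region 182 with Veh, neither had a gap in the T0 numbering, and neither had a peak in any other list.

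**Figure D5:**
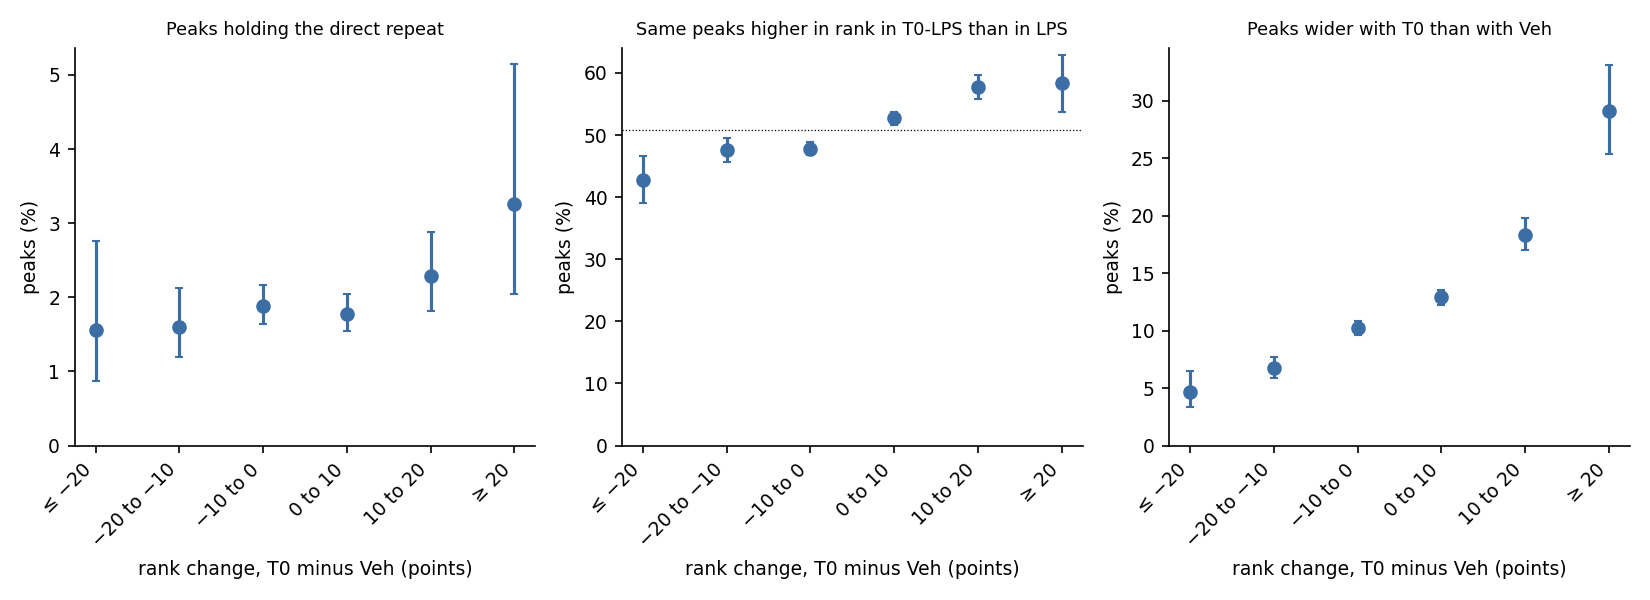
By class of rank change from Veh to T0 in points (horizontal axes), the percentage of pairs that held the direct repeat (left), that were higher in rank in T0-LPS than in LPS (middle, with a dotted line at 50.8% for all pairs) and that were wider with T0 than with Veh (right), with 95% Wilson intervals. From the first class to the last the shares go from 1.55% to 3.26%, from 42.8% to 58.4% and from 4.66% to 29.1%.

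Peaks near genes of Toll-like receptor and NF-κB signalling, which carry the response to LPS, were closed about as often as all peaks. Of 368 Veh peaks within 100 kb of the 36 genes, 73 were closed (19.8%, 16.1 to 24.2), beside 18.2% overall. Tlr8 had 7 closed, and Tlr7, Myd88, the adaptor of most Toll-like receptors, and Nfkb1, the p50 subunit, had 5 each. Of 288 shared pairs, 16 rose by 20 points or more (5.56%, 3.45 to 8.83), beside 1.85% of all pairs. Another 4 fell by as much (1.39%), beside 2.5% of all pairs, and the median change was 0.558 points. The promoter peak of Nfkbia, the inhibitor IκBα, at −39 bp went from 332 to 385 (26.98 points), while a peak at 18606 bp of the same gene went from 386 to 140 (−25.5 points). A peak at 39851 bp of Nfkbiz, another IκB protein, went from 341 to 400 (27.4 points), and one at 19925 bp of Tnfaip3, the deubiquitinase A20, from 189 to 200 (20.2 points). The promoters of Tab1 (168 to 195) and Tab2 (125 to 178), adaptors of the kinase TAK1, also rose. The remaining risers lay within 100 kb of Tlr8, Tlr9 (2), Tirap (2), Ticam1, Irak2, Irak4, Ikbkg, Relb and Nfkbib. That of Ikbkg was nearest to Ikbkg itself, the others were nearest to other genes, such as Tmsb4x, Alas1 and Brk1, and the Relb one was the Clptm1 peak counted with Apoe. The opened peaks were at −46195 bp of Tlr5, the flagellin receptor (420 with T0), and at −50157 bp of Rel, the c-Rel subunit (171). At both the Veh numbering had a gap.

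Inflammatory cytokine, chemokine and enzyme genes had 42 of 223 Veh peaks closed (18.8%, 14.2 to 24.5), beside 18.2% of all Veh peaks, and no opened peak. Tnf had 6 and Ccl2, Ccl7 and Ccl9 had 5 each. Of 175 shared pairs 6 rose by 20 points or more (3.43%) and 3 fell (1.71%), beside 1.85% and 2.5% of all pairs, with a median change of −0.141 points. The risers were in an intron of Il15 (222 to 260, 26.7 points), at −20389 bp of Tnf (118 to 165, 20.3 points), at the 2 Pf4 sites near Cxcl3, near Cxcl10 at Nup54 (25.7 points) and 8924 bp downstream of the start of Ccl3, near Ccl4 and Ccl9 too (21.3 points). An intronic peak of Ccl9, an attractant for myeloid cells, fell from 362 to 130 (−24.9 points).

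Genes of leukocyte adhesion and migration had 33 of 194 Veh peaks closed (17.0%), beside 18.2% of all Veh peaks, led by the chemokine receptors Ccr1 with 7 and Ccr2 with 6, which share one cluster. Others were Itgb3, Icam1, Cd44 and Alcam with 3 each. Of 159 pairs 4 rose (2.52%) and 6 fell (3.77%) by 20 points or more, beside 1.85% and 2.5% of all pairs. An intronic peak 907 bp from the start of Itgb2, the β2 integrin chain, rose from 244 to 292 (27.9 points), and the 3 others were downstream of the start of Ccr1. Peaks near Itgam (−23.3 points) and Ccr2 (−24.9 points) fell. The opened peak was near Itgal but at −53 bp of Sephs2, its nearest start, with a score of 94 and a gap in the Veh numbering.

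Macrophage transcription factor genes had 32 of 206 Veh peaks closed (15.5%), with 5 at Nr4a1, 4 at Mitf and at Klf6, and 3 at Bhlhe40 and Batf3. They had 4 opened peaks, near Irf8, which drives monocyte fate (76), Bhlhe41 (108), Klf6 (89) and Batf3 (79). The Veh numbering had a gap at the Irf8 and Bhlhe41 peaks. Of 169 pairs 3 rose (1.77%), near Cebpa and Nr4a1 (2), and 2 fell (1.18%), beside 1.85% and 2.5% of all pairs. Phagocytosis and scavenger receptor genes had 28 of 194 closed (14.4%), with 6 each at the Fc receptor genes Fcgr3 and Fcgr4, 5 at Fcgr2b and 4 at Mrc1 and Tyrobp, and 5 of 162 pairs rose (3.09%), near Axl (2), Cd68 and Scarb1 (2). Housekeeping genes had 32 of 221 closed (14.5%, 10.4 to 19.7), led by Gapdh and Rps18 with 6 each and B2m with 3. Of their 182 pairs 5 rose (2.75%), among them pairs near Actb, Polr2a and Rpl13a, and 6 fell (3.30%). Near Gapdh lay 1 opened peak, at −29 bp of Chd4, its nearest start, where the Veh numbering had a gap. Over the 7 lists the closed shares lay between 14.4% and 19.8%, beside 18.2% of all Veh peaks. The shares that rose are to be read beside 1.85% of all pairs, and those that fell beside 2.5%. No list had more than 4 opened peaks. Over all T0 peaks 0.751% were opened, and the opened share per list was not taken.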

How the data were processed

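ATAC-seq was performed in 16 libraries, 4 in each of the Veh, T0, LPS and T0-LPS groups, which were grouped by the treatment in their labels. The authors trimmed reads with cutadapt, aligned them to mm10 (GRCm38) with Bowtie2, removed duplicates with SAMtools, called peaks with MACS2 at a q-value of 0.001 on the 4 libraries of a group together, and kept enhancers by histone marks. Tool names also stand in the submitters' processing notes, with no versions. Each deposited list gave a position, a running number and 1 score per peak, the peak caller's score, whose scale is not given in the sources used here. No counts or depths were given, so precision is limited by the number of peaks. Off the main chromosomes, 26 Veh and 21 T0 peaks had no nearest gene and were left out of gene and chromosome counts.

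Veh and T0 peaks were joined at a minimum overlap of 1 bp with Python 3.11.15, numpy 2.4.6, pandas 2.3.3, scipy 1.17.1 and pysam 0.24.0, figures were drawn with matplotlib 3.10.9, and genes came from the GENCODE GRCm38 annotation by the nearest protein-coding start to the peak's midpoint. Gene lists used 100 kb around each 5′ end. Cxcl11 and Clec7a were not found there as protein-coding genes. The joining, numbering gap, nearest start and repeat steps were tested on simulated data. Of the ranks only the mean was checked there, and the run step was not tested. No test across features was possible, because each group was 1 pooled list, and shares carry Wilson 95% intervals for counting error only.

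The text names the 12 genes with the most T0-closed peaks, the 6 runs with the most peaks, the 10 strongest closed and opened peaks with no gap in the other numbering, genes nearest to 2 or more opened peaks, the 12 largest rank rises and falls, the 8 genes with the most risers or fallers, and, of each gene list, the 4 members with the most closed peaks, ties included, and members with an opened or rising peak. Some genes that meet this rule are not reported here. Other genes were chosen after their values were seen. The members and lists were chosen with earlier results of these data known. Alternatives were 50% reciprocal overlap, joining within 500 bp, a median score limit, a shortened Veh list, peaks with no gap, whole-list percentiles, thresholds of 10 and 30 points, width correction and other search settings. Those for LXR targets were chosen after seeing the data.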

Additional observations from a re-analysis of the deposited data

How the results depend on the processing

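No paired analysis was possible because each group was deposited as 1 list pooled over its 4 libraries, and for the same reason no library could be left out in turn. Of 36 counts and shares under alternatives, 15 stayed within 1.5 times the value reported and 21 did not. The 24 shared peaks with the largest rises and falls all kept their direction with percentiles of the whole lists and with width correction. All also kept a change of 20 points or more. These 24 had been chosen for the size of their change, and both alternatives used the same scores, so this is a description. Closed peaks numbered 141 (0.791%) at or above the median score, 2301 (7.71%) with the Veh list shortened to the size of the T0 list, and 4066 (18.5%) among places with no gap in the T0 numbering. Opened peaks numbered 2035 at 50% reciprocal overlap, 13 at or above the median score, 1723 (5.77%) with the Veh list shortened, and 123 (0.769%) among places with no gap. Both counts thus changed with the length of the lists. With percentiles of the whole lists 22 pairs rose and 2971 fell by 20 points or more. At 10 points 3587 rose and, by coincidence, 3587 fell, and at 30 points 30 rose and 79 fell. Pairs wider with T0 numbered 11290 (39.9%) when widths were taken relative to the median of their own list. Genes with 3 or more closed peaks numbered 226 with the nearest gene of any type, and runs numbered 10 with the Veh list shortened. The direct repeat was found in 0 risers with 0 mismatches and in 0.575% with up to 1. Near LXR targets 2 pairs rose and 17 (11.1%) fell by percentiles of the whole lists, and 40 rose (26.1%, beside 12.7% of all pairs) at 10 points.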

Other observations

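Among the 33 regions that fell by 20 points of rank or more with T0 in both settings were some far from the gene lists above. A peak at 143112 bp of Myc, the proliferation factor, in an intron of Pvt1, had scores of 347 with Veh, 136 with T0, 255 with LPS and 111 with T0-LPS, and its rank changed by −20.99 points with T0 alone and by −24.4 points with LPS. There each T0-treated list scored under its own control. The other regions that fell in both included ones nearest to Ctla4, Dab2ip, Gsdme, Lpin2, Sel1l, Stk36 and Mctp1.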
